A study of Mus musculus with 12 samples.

Results

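The genes described here encode the constitutive proteasome: 44 protein-coding mouse genes whose GRCm38 symbol starts with Psma, Psmb, Psmc, Psmd, Psme, Psmf or Psmg, without the immunoproteasome genes Psmb8, Psmb9 and Psmb10, and averaging 50 or more reads over the total RNA of 12 libraries. They were 44 of 30994 genes in the count tables, of which 9933 reached the same mean. The symbols alone matched 50 genes. Psma8, Psmb11 and Psme2 were left out for low counts, with means of 0, 3.75 and 8 reads, and the 3 immunoproteasome genes by name. By role the set held 7 alpha and 7 beta subunits of the 20S core, 6 ATPases and 11 non-ATPase subunits of the 19S particle, 4 activators, 1 inhibitor and 7 assembly chaperones. Its last member, Psmc3ip, encodes a partner of meiotic recombinases, matched by its symbol only, and is no proteasome part.

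The study used SIM-A9 cells, a spontaneously immortal line of C57BL/6 mouse microglia, the macrophages of the brain. All cells received 10 µM polymyxin B, which neutralises bacterial endotoxin, for 1 h, then 10 µM C13 or its solvent DMSO for 1 h, and then 5 µg/mL of TDP-43 aggregates or of a sham preparation. After 2.5 h, 100 µM 4-thiouridine was added for 90 min, so that the aggregates or the sham were present for 4 h. The 4 groups, with 3 libraries each, were C13 with TDP-43, C13 with sham, DMSO with TDP-43 and DMSO with sham; the series title calls C13 an inhibitor of the kinase MOK. TDP-43 is an RNA-binding protein that forms aggregates in some neurodegenerative diseases. In SLAM-seq, reads with base changes left by 4-thiouridine mark RNA made during the pulse, called nascent below, and all reads of a gene are its total RNA. The labels name the libraries as biological replicates and give no separate culture or day, so p-values measure the spread between these libraries.

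The proteasome is the main protease for ubiquitin-tagged proteins in the cytosol and nucleus. Its barrel-shaped 20S core holds 3 kinds of catalytic beta subunit, and the 19S particle binds ubiquitin chains, removes them and uses ATPases to thread the unfolded protein through the gate of the alpha ring. The genes of core and 19S particle are known to be induced together by the transcription factor Nfe2l1 when proteasome activity falls, and in microglia the proteasome also degrades the inhibitor of NF-kB after inflammatory signals.

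The libraries held 17436397 to 41779882 total and 552042 to 2722812 nascent reads. SIM-A9 cells carried microglial and macrophage markers: 12 of 14 exceeded a mean of 1 CPM (reads scaled by TMM to a library of 1e+06), with a sum of 1271 to 1789 CPM, while Tmem119 and C1qa stayed at or below 1.45 and 1.34 CPM. The summed markers of astrocytes, neurons, endothelium and fibroblasts were at or below 4.17 CPM, and those of oligodendrocytes, 4.47 to 46.4 CPM, came mostly from Mbp. In the nascent table, C13 with sham replicate 3 and DMSO with TDP-43 replicate 3 stood apart, with scaling factors of 0.641 and 0.763, against 0.969 to 1.12 in the other 10 libraries.

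Together the 44 genes took 0.750% to 0.925% of the total reads of a library and 0.584% to 0.917% of the nascent reads. In total RNA their summed level was 8247 ± 814 CPM in C13 with TDP-43, 8438 ± 1179 CPM in C13 with sham, 8088 ± 495 CPM in DMSO with TDP-43 and 8769 ± 770.4 CPM in DMSO with sham (SD, n = 3 each). In nascent RNA it was 7093 ± 451 CPM in C13 with TDP-43, 7743 ± 1258 CPM in C13 with sham, 7489 ± 1137 CPM in DMSO with TDP-43 and 7165 ± 1303 CPM in DMSO with sham (SD, n = 3 each). The group ranges overlapped in both tables, so the summed output of the proteasome genes differed by less than the spread between libraries. In such bulk samples, fewer cells and less RNA per cell cannot be told apart, and CPM values are relative to the rest of each library.

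The libraries were made from RNA 3′ ends, 1 read per transcript end, so that levels of different genes were compared as 3′-end CPM without a length correction. Core and 19S subunits sit in the particle as proteins in equal numbers. Levels of RNA are another measure, and those of the 44 genes did not lie close together. Psmd8, a non-ATPase subunit of the 19S lid, was the highest, at 2187 ± 253 CPM in total RNA (SD over 12 libraries). It took 22.8% to 29.1% of the members' reads per library, stood 2.74 times above Psmd11, and its lowest library lay above the highest of Psmd11. Of the 43 neighbouring pairs in the order of mean level, this was the one pair whose ranges did not overlap; the other 42 did. The order ran from Psmd8 through Psmd11 (799 ± 111 CPM), Psmd4 (583 ± 146 CPM) and Psmb1 (408 ± 61.4 CPM) down to Psmf1 (20.1 ± 5.81 CPM), Psmb3 (15.3 ± 5.19 CPM) and Psmc3ip (7.40 ± 3.19 CPM). All counts of Psmb5, Psmc2, Psmc3, Psmg2 and Psmg3 were multiples of 2; in 1917 of the 9933 genes all counts shared a whole factor of 2 or more, and the reason is not stated with the data. Their CPM were divided by 2 where genes are ranked here, and are printed as deposited where groups are compared. Across the 44 genes, nascent and total means followed each other with a Spearman rho of 0.925, a description over genes that share all 12 libraries.

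**Figure D1:**
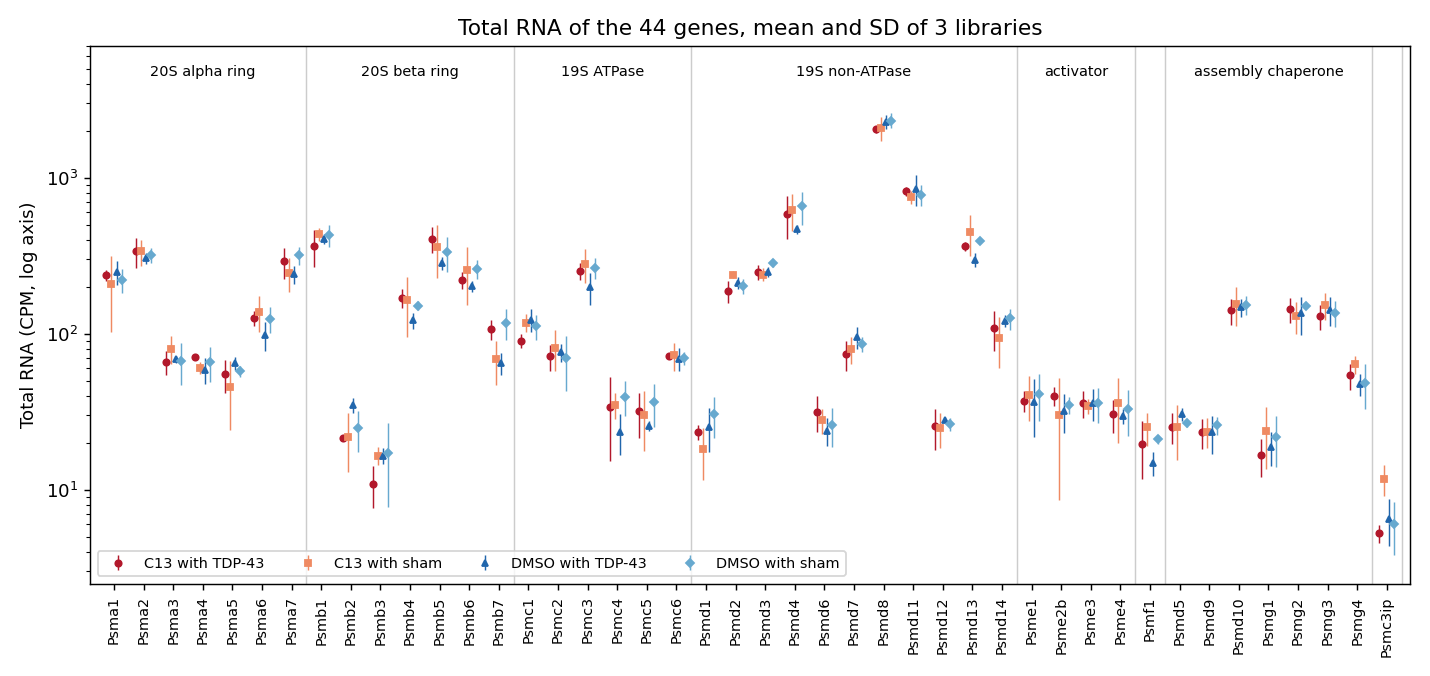
Total RNA of each of the 44 genes in CPM (log axis), ordered by role; symbols are group means of 3 libraries and bars are SD. Psmd8 stands above all others at 2187 CPM over all libraries. In Psmb7 the outer pair, C13 with TDP-43 and DMSO with sham, stands above the inner pair. Bars also lie apart in other genes, such as Psmb2, at 21.5 ± 0.732 CPM in C13 with TDP-43 and 34.8 ± 3.77 CPM in DMSO with TDP-43.

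The alpha subunits form the outer rings of the core and its gate. Their mean levels spanned 5.85-fold, with a median of 122 CPM. The highest, Psma2, had 423, 312 and 282 CPM in C13 with TDP-43, 385, 361 and 264 CPM in C13 with sham, 316, 274 and 321 CPM in DMSO with TDP-43 and 349, 331 and 281 CPM in DMSO with sham. The lowest, Psma5, had 40.7, 58.2 and 66.2 CPM in C13 with TDP-43, 50.7, 21.9 and 63.2 CPM in C13 with sham, 62.5, 59.9 and 71.8 CPM in DMSO with TDP-43 and 52.7, 61.96 and 57.1 CPM in DMSO with sham. In both genes the libraries of the 4 groups overlapped. The lowest Psma5 library, C13 with sham replicate 2, lay at 21.9 CPM. The beta subunits form the inner rings, and their levels spanned 26.7-fold around a median of 152 CPM. At the top, Psmb1, a structural beta subunit, had 474, 301 and 318 CPM in C13 with TDP-43, 409.5, 479 and 411 CPM in C13 with sham, 382, 398 and 439 CPM in DMSO with TDP-43 and 437, 492 and 354 CPM in DMSO with sham. At the bottom, Psmb3, another structural subunit, had 14.7, 9.53 and 8.55 CPM in C13 with TDP-43, 16.2, 18.8 and 14.6 CPM in C13 with sham, 14.9, 18.7 and 15.96 CPM in DMSO with TDP-43 and 11.6, 28.2 and 11.8 CPM in DMSO with sham. Neither gene separated C13 from DMSO with sham, or TDP-43 from sham in either drug arm. All 3 Psmb3 libraries of C13 with TDP-43 lay below those of DMSO with TDP-43.

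The catalytic subunits are Psmb5, with chymotrypsin-like activity, Psmb6, with caspase-like activity, and Psmb7, with trypsin-like activity. In total RNA, Psmb5 had 480.1, 413 and 327 CPM in C13 with TDP-43, 320.0, 510.0 and 251 CPM in C13 with sham, 264, 274 and 314 CPM in DMSO with TDP-43 and 278, 432 and 293 CPM in DMSO with sham. Psmb6 had 252, 209.8 and 199 CPM in C13 with TDP-43, 287, 343 and 142 CPM in C13 with sham, 218, 199.5 and 187 CPM in DMSO with TDP-43 and 248, 302 and 233 CPM in DMSO with sham. For Psmb5 the libraries of C13 with TDP-43 all lay above those of DMSO with TDP-43, and for Psmb6 those of DMSO with TDP-43 all lay below those of DMSO with sham; all other pairs of groups that differ in 1 agent overlapped. In nascent RNA, Psmb5 had 139, 118 and 406 CPM in C13 with TDP-43, 193, 209 and 389 CPM in C13 with sham, 164, 166 and 146 CPM in DMSO with TDP-43 and 85.8, 346 and 134 CPM in DMSO with sham. Nascent Psmb6 had 264, 108 and 111 CPM in C13 with TDP-43, 238, 311 and 65.5 CPM in C13 with sham, 177, 214 and 418 CPM in DMSO with TDP-43 and 179, 267 and 149 CPM in DMSO with sham. The groups of both genes overlapped in nascent RNA in each of the 4 comparisons that change 1 agent.

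Total Psmb7 had the pattern with the smallest p of any member. It had 118, 113 and 88.6 CPM in C13 with TDP-43, 92.5, 59.3 and 53.2 CPM in C13 with sham, 67.5, 73.04 and 52.9 CPM in DMSO with TDP-43 and 119, 143 and 89.8 CPM in DMSO with sham. Every library of C13 with TDP-43 lay above every library of DMSO with TDP-43, and every library of DMSO with TDP-43 lay below every library of DMSO with sham, whereas 1 library of C13 with sham, at 92.5 CPM, fell among those of C13 with TDP-43 and of DMSO with sham. By edgeR's quasi-likelihood test, the log2 fold change of C13 against DMSO was 0.72 with TDP-43 (SE 0.26, unadjusted p = 0.0125, adjusted p = 0.833) and -0.78 with sham (SE 0.26, unadjusted p = 0.00792, adjusted p = 0.794). TDP-43 against sham gave 0.64 with C13 (SE 0.26, unadjusted p = 0.0239, adjusted p = 0.538) and -0.87 with DMSO (SE 0.26, unadjusted p = 0.00409, adjusted p = 0.999). The interaction, which is the C13 effect with TDP-43 minus the C13 effect with sham, was 1.51 on the log2 scale (SE 0.36, edgeR unadjusted p = 8.15e-04, adjusted p = 0.241), and so did not pass the threshold of 0.05. It passed under DESeq2 (adjusted p = 0.0153), which called 108 of 11827 genes (0.913%), and in edgeR without the filter on low counts (adjusted p = 0.0153), which called 124 of 18001 genes (0.689%). Leaving out each library in turn gave adjusted p from 0.129 to 0.615, and leaving out both libraries that stood apart gave 1.25 on the log2 scale with an adjusted p of 0.516. Those libraries stood apart by their nascent scaling factors, and their factors in total RNA were 1.04 in C13 with sham replicate 3 and 0.981 in DMSO with TDP-43 replicate 3. They also held the lowest total Psmb7 of all 12 libraries, at 53.2 and 52.9 CPM, so leaving them out raises the means of both low groups.

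Psmb7 was next set against the rest of the core. This percent uses the same Psmb7 values, so it describes the crossed pattern again and is no separate evidence for it. As a percent of the summed CPM of the other 13 core genes, Psmb7 was 4.50 ± 0.605 in C13 with TDP-43, 2.90 ± 0.848 in C13 with sham, 3.01 ± 0.560 in DMSO with TDP-43 and 4.87 ± 0.629 in DMSO with sham (SD, n = 3 each). The sum of those 13 genes was 2379 ± 339 CPM in C13 with TDP-43, 2370.5 ± 372 CPM in C13 with sham, 2147 ± 60.3 CPM in DMSO with TDP-43 and 2392 ± 246 CPM in DMSO with sham. The share of total reads from mitochondrial ribosomal RNA moved the opposite way: it was 1.45% ± 0.139 in C13 with TDP-43, 2.62% ± 0.972 in C13 with sham, 2.23% ± 0.453 in DMSO with TDP-43 and 1.32% ± 0.160 in DMSO with sham (SD, n = 3 each). Its part in the Psmb7 result was not tested. On the annotation, Psmb7 (chromosome 2, 38588036 to 38644087 of GRCm38, minus strand) overlaps the small gene Gm27634 on its own strand and Nek6 and Gm13586 on the other, and how reads of overlapping genes were assigned is not given in the sources used here. Nascent Psmb7 had 72.1, 111 and 47.1 CPM in C13 with TDP-43, 25.4, 17.7 and 41.7 CPM in C13 with sham, 56.9, 84.4 and 92.5 CPM in DMSO with TDP-43 and 60.2, 84.9 and 106 CPM in DMSO with sham. The 3 libraries of C13 with sham were the lowest of all 12, below those of C13 with TDP-43 and of DMSO with sham, while DMSO with TDP-43 and DMSO with sham overlapped. The nascent interaction was 1.54 (SE 1.19, edgeR unadjusted p = 0.21, adjusted p = 0.808).

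**Figure D2:**
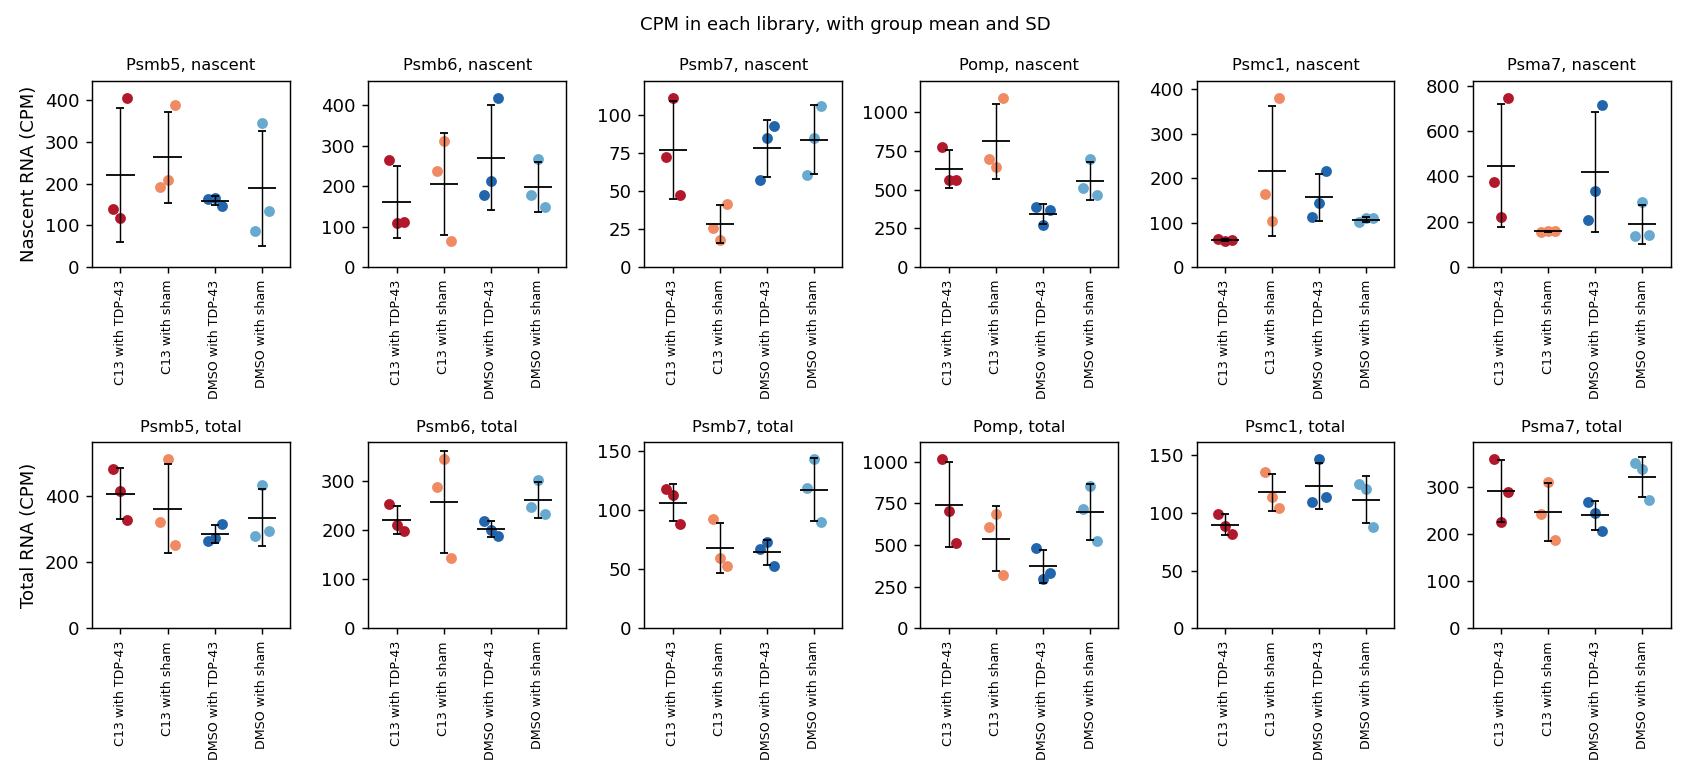
Nascent (top) and total (bottom) CPM in each library for the catalytic subunits Psmb5, Psmb6 and Psmb7, the maturation factor Pomp, and the subunits Psmc1 and Psma7; points are libraries, lines are group means and bars are SD (n = 3 each). Total Psmb7 is near 107 CPM in C13 with TDP-43 and 117 CPM in DMSO with sham, against 68.3 CPM in C13 with sham and 64.5 CPM in DMSO with TDP-43.

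The promoters of 2 catalytic genes hold the core of the antioxidant response element, the kind of site to which Nfe2l1 and Nfe2l2 bind, and are shown for that reason with the match in capitals. They are followed by an alpha subunit promoter with a site of the kind bound by nuclear respiratory factor 1, a factor other than Nfe2l1. Each run is the 250 bases before the RefSeq start of the gene on GRCm38.p6, 5′ to 3′ on the gene's strand: Psmb5 at chr14:54617996-54618245 (minus strand), Psmb6 at chr11:70525107-70525356 (plus strand) and Psma2 at chr13:14612992-14613241 (plus strand).
Psmb5: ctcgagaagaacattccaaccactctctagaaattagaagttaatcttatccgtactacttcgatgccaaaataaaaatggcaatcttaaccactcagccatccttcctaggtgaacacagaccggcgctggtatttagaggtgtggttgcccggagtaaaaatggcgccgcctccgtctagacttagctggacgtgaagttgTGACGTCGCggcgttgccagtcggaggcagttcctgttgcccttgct
Psmb6: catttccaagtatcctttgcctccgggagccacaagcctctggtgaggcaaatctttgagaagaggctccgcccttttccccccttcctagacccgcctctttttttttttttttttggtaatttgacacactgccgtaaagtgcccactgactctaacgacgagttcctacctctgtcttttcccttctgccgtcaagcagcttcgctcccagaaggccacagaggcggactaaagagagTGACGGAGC
Psma2: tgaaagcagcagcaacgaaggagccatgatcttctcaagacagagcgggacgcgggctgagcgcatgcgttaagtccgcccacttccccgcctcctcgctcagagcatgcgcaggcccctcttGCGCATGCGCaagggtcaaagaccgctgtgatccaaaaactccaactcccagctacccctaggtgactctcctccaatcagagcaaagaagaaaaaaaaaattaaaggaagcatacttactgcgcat

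In windows of 250 bases before to 50 after the start, promoters of 37 of the 44 genes were read from RefSeq; those of Psmb1, Psmb2, Psmb7, Psmc3, Psmd3, Psmd7 and Psmg2 were not used here. On either strand, TGACNNNGC was found in 6 of 37 genes (16.2%; Psmb5, Psmb6, Psmc6, Psmd9, Psmd12 and Psme4), against 13.99% of all genes with a promoter. CCAAT, the core of the site of the factor NF-Y, was found in 13 of 37 (35.1%), against 41.1% of all genes. The site of the nuclear respiratory factor kind, which is the run in capitals in Psma2 with any base in place of its T, was found in 7 of 37 (18.9%; Psma2, Psma3, Psma4, Psmc4, Psmc5, Psmd14 and Psmg1), against 5.19% of all genes. No matches of different motifs overlapped in the members' promoters. The genes set beside the members were all 27025 genes with such a promoter, without a count minimum, whereas the members had to average 50 reads. The shares are therefore not from like sets. They describe letters in the windows, and no test was made of them.

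The ATPases form the ring that unfolds substrates. After division by the shared factor their mean levels spanned 4.01-fold, with Psmc3 highest at 125 CPM and Psmc5 lowest at 31.0 CPM. As deposited, Psmc3 had 287, 241 and 228 CPM in C13 with TDP-43, 258, 359 and 227 CPM in C13 with sham, 209, 148 and 240.3 CPM in DMSO with TDP-43 and 265, 305 and 224 CPM in DMSO with sham. Psmc5 had 40.2, 34.6 and 20.4 CPM in C13 with TDP-43, 22.8, 44.6 and 23.2 CPM in C13 with sham, 25.6, 27.7 and 23.8 CPM in DMSO with TDP-43 and 33.7, 48.8 and 26.9 CPM in DMSO with sham. In both, all pairs of groups that differ in 1 agent overlapped. Psmc1, an ATPase next to the core, had 99.6, 89.1 and 81.4 CPM in C13 with TDP-43, 136, 114 and 104 CPM in C13 with sham, 109.6, 147 and 114 CPM in DMSO with TDP-43 and 125, 121 and 87.9 CPM in DMSO with sham in total RNA. Its 3 libraries of C13 with TDP-43 lay below all those of DMSO with TDP-43 and of C13 with sham. The non-ATPase subunits, which include the ubiquitin receptor Psmd4, the deubiquitinase Psmd14 and the scaffolds Psmd1 and Psmd2, spanned 89.5-fold. Their highest, Psmd8, had 2088, 2109 and 1932 CPM in C13 with TDP-43, 2226, 2367 and 1671 CPM in C13 with sham, 2388, 2034 and 2449 CPM in DMSO with TDP-43 and 2110.2, 2608 and 2261 CPM in DMSO with sham. Their lowest, Psmd1, had 25.8, 24.2 and 20.6 CPM in C13 with TDP-43, 24.7, 11.4 and 18.8 CPM in C13 with sham, 31.3, 28.6 and 16.2 CPM in DMSO with TDP-43 and 30.8, 21.3 and 39.4 CPM in DMSO with sham. Neither separated any pair of groups that differ in 1 agent.

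The activators open the gate of the core from outside the 19S particle, and their levels lay within 1.20-fold of each other. Psme1, a subunit of the interferon-inducible PA28 ring of the cytosol, had 42.5, 37.7 and 31.2 CPM in C13 with TDP-43, 44.1, 50.98 and 26.01 CPM in C13 with sham, 33.5, 52.8 and 23.4 CPM in DMSO with TDP-43 and 32.9, 57.3 and 33.8 CPM in DMSO with sham. Psme3, which forms the nuclear PA28 ring, had 42.8, 29.1 and 35.4 CPM in C13 with TDP-43, 32.8, 38.6 and 31.7 CPM in C13 with sham, 34.4, 44.8 and 28.2 CPM in DMSO with TDP-43 and 30.6, 46.02 and 30.5 CPM in DMSO with sham. Psme4, the single-chain activator PA200, had 37.9, 30.3 and 23.2 CPM in C13 with TDP-43, 41.2, 18.1 and 49.3 CPM in C13 with sham, 31.9, 26.02 and 31.1 CPM in DMSO with TDP-43 and 35.6, 41.7 and 20.9 CPM in DMSO with sham. The groups overlapped throughout. Psme2b, placed among the activators by its symbol only, had 44.6, 33.97 and 41.5 CPM in C13 with TDP-43, 16.9, 55.3 and 18.7 CPM in C13 with sham, 42.6, 28.05 and 25.8 CPM in DMSO with TDP-43 and 29.9, 38.1 and 36.9 CPM in DMSO with sham, again with overlapping groups. Psmf1, an inhibitor of the core in vitro, had 28.6, 14.3 and 15.9 CPM in C13 with TDP-43, 19.5, 31.3 and 24.3 CPM in C13 with sham, 11.9, 16.3 and 16.2 CPM in DMSO with TDP-43 and 20.8, 19.7 and 22.6 CPM in DMSO with sham. Its libraries of DMSO with TDP-43 lay below all those of DMSO with sham, and the other groups overlapped.

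The reads counted for Psme2b may include reads of Psme2, the gene known as the second PA28 subunit. Psme2 was counted with 96 total and 0 nascent reads over the 12 libraries, and Psme2b with 12575 total and 635 nascent reads. In the GENCODE transcripts the last 220 aligned bases are identical, with Psme2b 2 bases longer, and over 716 aligned bases there were 5 differences (99.3% identity). A 3′-end read that lies wholly within the identical bases cannot be assigned to either gene alone, and the share of such reads was not measured here. On its own strand Psme2b also overlaps Gm12185 and 9930111J21Rik1. The Psme2b values are therefore uncertain as to gene. The difference nearest to the 3′ end is C575T, with positions counted from 1 at the 5′ end of the Psme2 transcript. The 41 coding bases around it, with the differing base in capitals, are shown to mark where the copies last differ.
Psme2: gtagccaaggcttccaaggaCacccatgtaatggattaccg
Psme2b: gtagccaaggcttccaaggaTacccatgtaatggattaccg

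The assembly chaperones bind unfinished core or 19S intermediates and leave the finished particle. Their mean levels spanned 7.38-fold. Psmd10, a chaperone of the 19S base, had 169.6, 117 and 137 CPM in C13 with TDP-43, 184, 179 and 105 CPM in C13 with sham, 159, 124 and 159 CPM in DMSO with TDP-43 and 155, 174 and 131 CPM in DMSO with sham. Psmg1, a chaperone of the alpha ring, had 15.8, 12.6 and 21.5 CPM in C13 with TDP-43, 27.7, 12.2 and 31.5 CPM in C13 with sham, 19.1, 23.4 and 14.01 CPM in DMSO with TDP-43 and 19.01, 30.5 and 15.6 CPM in DMSO with sham. Both genes overlapped between all groups that differ in 1 agent. Within the role, total Psmd5, another base chaperone, was the one gene with groups apart: its libraries of DMSO with TDP-43 lay above those of DMSO with sham.

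Nascent reads, as a share of the total reads of a gene over all 12 libraries, ran from 0.254% to 11.9%. The median share was 2.80% over the 44 genes (quartiles 2.09% and 3.62%), against 2.63% over the 9933 genes with the same count minimum (quartiles 1.71% and 3.98%), with 24 of the 44 genes above that median and 20 below. Psmg3, a chaperone of the alpha ring, had the highest share, 11.9% (6198 of 52036 reads), and 1.90% of those 9933 genes lay above it. Psmg3 overlaps Gm26938 on its own strand, and how reads of overlapping genes were assigned is not given in the sources used here. By group the share of Psmg3 was 10.8% ± 2.45 in C13 with TDP-43, 10.9% ± 0.825 in C13 with sham, 8.92% ± 2.17 in DMSO with TDP-43 and 16.4% ± 4.16 in DMSO with sham (SD, n = 3 each). Psmb1 followed at 6.36% and Psmd10 at 5.19%. At the other end, Psmf1 had 19 nascent of 7481 total reads (0.254%), with nascent reads in 5 of 12 libraries, and 97.6% of the 9933 genes lay above it. Psmc3 was next, at 0.927%. By role the median was 4.80% in the activators and 3.37% in the ATPases, against 2.63% in the alpha ring, 2.76% in the beta ring, 2.57% in the non-ATPase subunits and 3.01% in the chaperones. This order was not kept in each group: the median over the activators of their group means was 2.40% in C13 with TDP-43, 2.82% in C13 with sham, 3.72% in DMSO with TDP-43 and 7.02% in DMSO with sham, while that of the chaperones was 2.49% in C13 with TDP-43, 2.64% in C13 with sham, 3.12% in DMSO with TDP-43 and 4.10% in DMSO with sham.

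**Figure D3:**
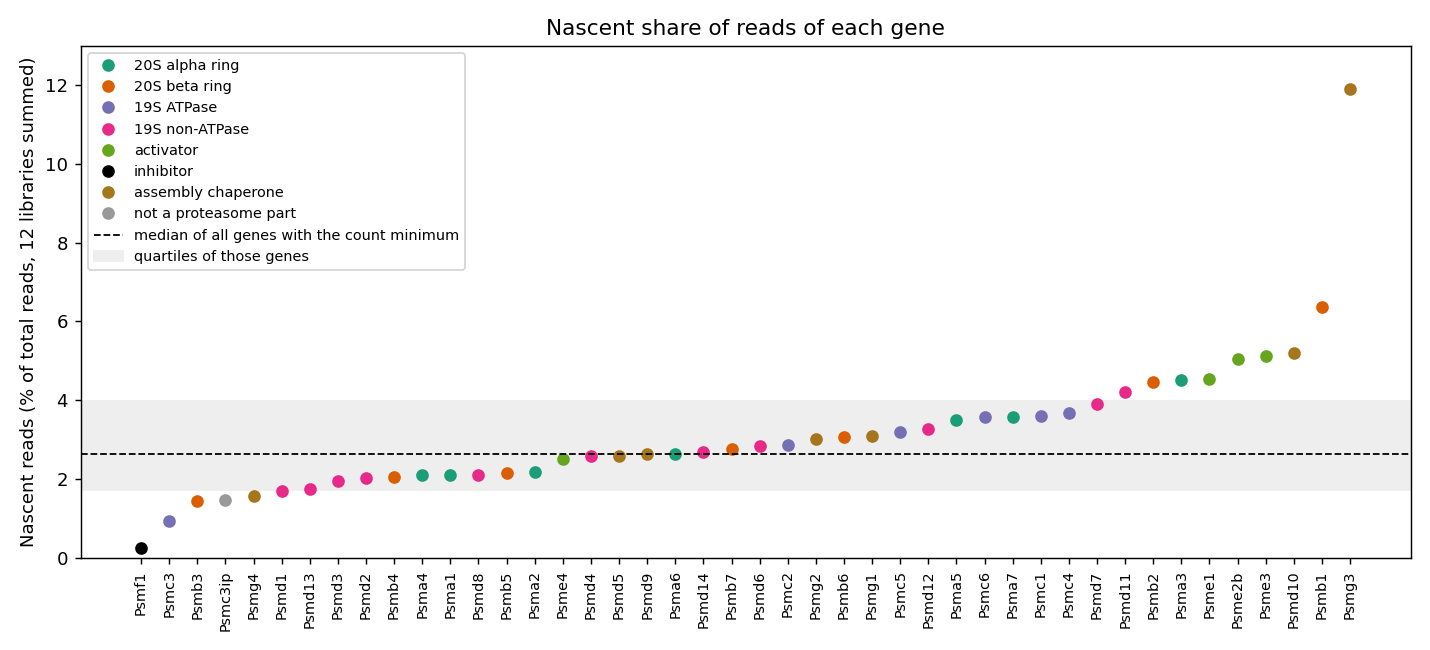
Nascent reads as a percent of total reads for each gene, summed over 12 libraries and ordered by value; colours give the role, the dashed line the median and the band the quartiles of 9933 genes. Psmg3 stands alone at 11.9%. The activators Psme1, Psme2b and Psme3 lie above the band, as do Psmd11, Psmb2, Psma3, Psmd10 and Psmb1. The activator Psme4 lies within the band at 2.50%, and Psmf1 is lowest at 0.254%.

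Per library, the nascent share of the 44 genes together followed that of the whole library. It was 2.60% ± 0.271 in C13 with TDP-43, 2.11% ± 0.598 in C13 with sham, 2.50% ± 0.786 in DMSO with TDP-43 and 4.10% ± 2.63 in DMSO with sham (SD, n = 3 each). The whole libraries had 2.91% ± 0.435 in C13 with TDP-43, 2.64% ± 0.683 in C13 with sham, 2.77% ± 0.610 in DMSO with TDP-43 and 4.42% ± 2.35 in DMSO with sham. The wide spread of DMSO with sham came from its replicate 2, at 7.06% for the genes and 7.11% for the library. The ratio of the genes' share to the library's ran from 0.744 to 0.994 over the 12 libraries. It averaged 0.899 ± 0.0433 in C13 with TDP-43, 0.796 ± 0.0253 in C13 with sham, 0.892 ± 0.0874 in DMSO with TDP-43 and 0.891 ± 0.131 in DMSO with sham. The 3 libraries of C13 with sham, from 0.779 to 0.825, lay below those of C13 with TDP-43 and overlapped those of DMSO with sham.

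Changes were tested by edgeR over all genes that passed a filter on low counts: 11827 genes in total RNA with all 44 members, and 7078 genes in nascent RNA with 41 members, since Psmb3, Psmf1 and Psmc3ip were removed there. In each of the 4 pairwise comparisons, in both averaged comparisons and in the interaction, 0 members passed an adjusted p of 0.05 in either table. The background was 0% of all genes called in each of these tests, except 0.0141% (1 gene) for TDP-43 against sham averaged over both drug arms in nascent RNA. DESeq2 called 1 member, Psmb7, in the interaction in total RNA, where it called 0.913% of all genes, and 0 members in all the others. The biological coefficient of variation had a median of 23.7% over the members in total RNA (28.9% over genes in the same range of expression) and 79.5% in nascent RNA (91.5%). The median SE of a member's log2 fold change in a pairwise comparison was 0.26 in total and 0.95 to 0.98 in nascent RNA. A change of the size seen for most members was therefore not detectable at this depth and number of libraries. The 4 pairwise comparisons share libraries with each other, so their values are given side by side.

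C13 against DMSO with TDP-43 asks what the compound does in cells given aggregates. In total RNA the members split evenly, with 22 higher and 22 lower, a median log2 fold change of 0.00 and a range from -0.69 to 0.72. The median of all genes was -0.00. At an unadjusted p under 0.05 there was 1 member higher, Psmb7, where 3.48% of all genes were, and 1 lower, Psmc1 at -0.45 (SE 0.21, edgeR unadjusted p = 0.0467, adjusted p = 0.833), where 2.50% were. The libraries did not overlap for 4 members that were higher, Psmb4, Psmb5, Psmb7 and Psmd13 (6.97% of all genes), and for 3 that were lower, Psmb2, Psmb3 and Psmc1 (6.48%). The beta subunits among them, Psmb2, Psmb3, Psmb4, Psmb5 and Psmb7, point in both directions. In nascent RNA, 18 of 41 members were higher and 23 lower, with a median of -0.11 beside 0.02 over all genes. In nascent RNA 1 member was lower at an unadjusted p under 0.05 (2.15% of all genes) and 0 were higher (2.44%). This was Psma1, an alpha subunit, with 115, 32.4 and 7.25 CPM in C13 with TDP-43, 249, 74.3 and 55.5 CPM in C13 with sham, 238, 181 and 536 CPM in DMSO with TDP-43 and 80.8, 191 and 97.6 CPM in DMSO with sham. Its log2 fold change was -2.62 (SE 0.93, edgeR unadjusted p = 0.0111, adjusted p = 0.99). All 3 libraries of C13 with TDP-43 lay below those of DMSO with TDP-43, but spread from 7.25 to 115 CPM. Without both libraries that stood apart it was -2.03 (edgeR unadjusted p = 0.0437). Total Psma1 had a log2 fold change of -0.07 (SE 0.32). Psma6, also an alpha subunit, had the smallest p among members that were higher, with 165, 80.97 and 226 CPM in C13 with TDP-43, 55.8, 108 and 13.9 CPM in C13 with sham, 56.9, 35.98 and 50.1 CPM in DMSO with TDP-43 and 111, 110.2 and 69.99 CPM in DMSO with sham and a log2 fold change of 1.72 (SE 0.86, edgeR unadjusted p = 0.0596, adjusted p = 0.998). Nascent libraries did not overlap for 2 members that were higher, Psma6 and Psmd12 (6.02% of all genes), and 2 that were lower, Psma1 and Psmc1 (4.34%).

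C13 against DMSO with sham shows the compound without aggregates. In total RNA 20 members were higher and 24 lower, with a median of -0.05 beside -0.01 over all genes and a range from -0.78 to 0.95; without DMSO with sham replicate 2 the median was 0.12. At an unadjusted p under 0.05 there was 1 lower member, Psmb7, where 4.05% of all genes were, and 0 higher, where 2.05% were. The smallest p among higher members belonged to Psmc3ip, with 5.95, 5.34 and 4.55 CPM in C13 with TDP-43, 14.6, 9.37 and 11.3 CPM in C13 with sham, 5.55, 4.99 and 9.02 CPM in DMSO with TDP-43 and 6.72, 7.90 and 3.57 CPM in DMSO with sham and a log2 fold change of 0.95 (SE 0.46, edgeR unadjusted p = 0.0559, adjusted p = 0.826). Libraries did not overlap for 2 higher members, Psmd2 and Psmc3ip (4.41% of all genes), and for 1 lower, Psmd3 (5.72%). In nascent RNA 22 members were higher and 19 lower, with a median of 0.03 beside -0.04. Unadjusted p was under 0.05 for 0 members, where 2.47% of all genes were higher and 4.42% lower. Smallest among lower members was that of Psmb7, at -1.56 (SE 0.86, edgeR unadjusted p = 0.0849, adjusted p = 0.746). Among higher members it was Psmd1, with 12.2, 0 and 0 CPM in C13 with TDP-43, 35.5, 61.9 and 0 CPM in C13 with sham, 31.8, 28.8 and 3.85 CPM in DMSO with TDP-43 and 0.825, 8.45 and 0.921 CPM in DMSO with sham and a log2 fold change of 3.15 (SE 1.90, edgeR unadjusted p = 0.114, adjusted p = 0.756). Psmd1 counts were near the floor, since 3 of its 12 nascent libraries held 0 reads, and a count of 0 allows up to 3 reads, or 1.01 to 5.95 CPM depending on the library. Nascent libraries did not overlap for 4 lower members, Psmb2, Psmb7, Psmc4 and Psmd4 (9.14% of all genes), and for 0 higher (5.13%).

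TDP-43 against sham with C13 asks what aggregates do under the compound. In total RNA 18 members were higher and 26 lower, with a median of -0.03 beside -0.01 over all genes, and a range from -1.15 to 0.64. The median was -0.15 without C13 with TDP-43 replicate 1, and also -0.15 without C13 with sham replicate 3. At an unadjusted p under 0.05 there was 1 higher member, Psmb7, where 5.12% of all genes were, and 1 lower, Psmc3ip at -1.15 (SE 0.46, edgeR unadjusted p = 0.0247, adjusted p = 0.541), where 3.71% were. Libraries did not overlap for Psma4, which was higher (6.69% of all genes), and for Psmc1, Psmd2 and Psmc3ip, which were lower (6.07%). In nascent RNA 18 of 41 members were higher and 23 lower, with a median of -0.27 beside 0.04. All 4 activators were on the lower side, from -0.77 to -0.30, but their libraries overlapped between the groups. The highest C13 with sham library was replicate 2 for Psme1 (104 CPM), Psme2b (124 CPM) and Psme3 (97.3 CPM). For Psme4 it was replicate 3 (57.5 CPM). Psma7, an alpha subunit, was the 1 higher member at an unadjusted p under 0.05 (5.19% of all genes), with 375, 219 and 747 CPM in C13 with TDP-43, 156, 157 and 161 CPM in C13 with sham, 206, 338 and 717 CPM in DMSO with TDP-43 and 137, 286 and 142 CPM in DMSO with sham and a log2 fold change of 1.50 (SE 0.62, edgeR unadjusted p = 0.027, adjusted p = 0.565). Psmc1 was the 1 lower member (3.26% of all genes), with 63.5, 59.1 and 60.4 CPM in C13 with TDP-43, 164, 103 and 381 CPM in C13 with sham, 112, 145 and 216 CPM in DMSO with TDP-43 and 101, 109.9 and 111 CPM in DMSO with sham. Its log2 fold change was -1.82 (SE 0.70, edgeR unadjusted p = 0.018, adjusted p = 0.554). The libraries of C13 with TDP-43, between 59.1 and 63.5 CPM, were the 3 lowest of all 12. Without both libraries that stood apart, of which C13 with sham replicate 3 was the highest for Psmc1, the log2 fold change was -1.08 (edgeR unadjusted p = 0.123), and that of Psma7 was 1.57 (edgeR unadjusted p = 0.0243). The median over the members was then -0.02, beside 0.23 over all genes. Nascent libraries did not overlap for 4 higher members, Psma7, Psmb7, Psmd4 and Psmd12 (7.87% of all genes), and 3 lower, Psma2, Psmc1 and Psmg1 (5.23%).

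TDP-43 against sham with DMSO shows aggregates without the compound. In total RNA 14 members were higher and 30 lower, where 48.5% of all genes were higher, and the median was -0.10 beside -0.02. Of the 7 beta subunits 6 were on the lower side, with a median of -0.23. Libraries did not overlap for 8 lower members (6.41% of all genes), which were the core subunits Psma7, Psmb4, Psmb6 and Psmb7, the 19S subunits Psmd3, Psmd4 and Psmd13, and the inhibitor Psmf1, and for 1 higher member, Psmd5 (5.49%). At an unadjusted p under 0.05 there was 1 lower member, Psmb7 (2.68% of all genes), and 0 higher (1.68%). The negative median rested on DMSO with sham replicate 2: without that library the median was 0.04. The 8 lower members without overlap lay below all 3 libraries of DMSO with sham, so their separation did not rest on replicate 2 alone. For Psmb7, leaving out each library in turn gave log2 fold changes from -1.04 to -0.69. The smallest p among higher members was that of Psmb2, a structural beta subunit, with 21.9, 22.03 and 20.7 CPM in C13 with TDP-43, 30.3, 23.02 and 12.4 CPM in C13 with sham, 30.5, 36.3 and 37.6 CPM in DMSO with TDP-43 and 23.6, 32.6 and 18.1 CPM in DMSO with sham and a log2 fold change of 0.49 (SE 0.33, edgeR unadjusted p = 0.155, adjusted p = 0.999). In nascent RNA 22 of 41 were higher and 19 lower, with a median of 0.03 beside -0.04, and 0 had an unadjusted p under 0.05 (1.23% of all genes higher and 1.96% lower). Psma7 again had the smallest p among higher members, at 1.16 (SE 0.62, edgeR unadjusted p = 0.0768, adjusted p = 1), at 0.53 without both libraries that stood apart (edgeR unadjusted p = 0.377), and at -0.084 with the library sizes of the total table, where the median of all genes was -0.84. Psmc4, an ATPase, had it among lower members, with 13.4, 40.5 and 2.42 CPM in C13 with TDP-43, 33.8, 3.54 and 11.9 CPM in C13 with sham, 0, 19.6 and 0 CPM in DMSO with TDP-43 and 89.1, 58.8 and 34.99 CPM in DMSO with sham and a log2 fold change of -3.09 (SE 1.60, edgeR unadjusted p = 0.0689, adjusted p = 1). Its fold is imprecise, since 2 of the 3 libraries of DMSO with TDP-43 held 0 reads; leaving out each library in turn gave -8.92 to -2.56, the first of these without DMSO with TDP-43 replicate 2, where the remaining libraries of that group were at 0 and the fitted value is no bound. Nascent libraries did not overlap for 5 lower members, Psma6, Psmc4, Psmd8, Psmd14 and Psmg2 (6.56% of all genes), and for 1 higher, Psmc1 (3.74%).

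**Figure D4:**
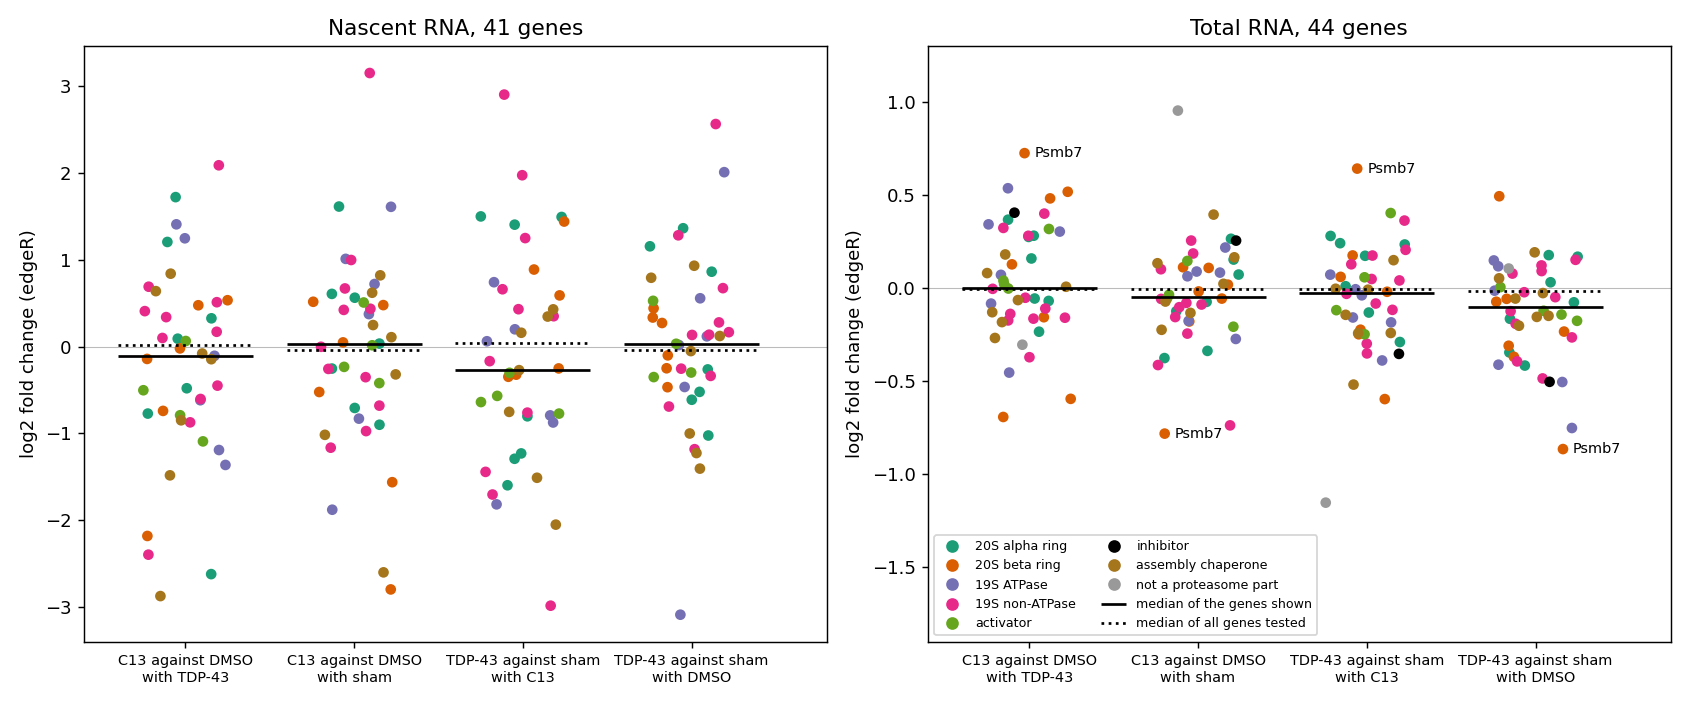
Log2 fold changes of the members in the 4 pairwise comparisons, nascent at left (41 genes) and total at right (44 genes, with its own narrower axis); points are genes coloured by role, solid lines their median and dotted lines the median of all genes tested. Total Psmb7 is marked: it lies at 0.72, -0.78, 0.64 and -0.87 from left to right, and the member medians stay within -0.27 and 0.03.

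Averaged over both aggregate arms, C13 gave a median of 0.00 in total RNA, with 22 members higher and 22 lower, and -0.08 in nascent RNA, with 20 higher and 21 lower. Unadjusted p was under 0.05 for 0 members in total RNA (1.75% of all genes higher and 2.33% lower). In nascent RNA it was for 1 lower member (3.56% of all genes) and 0 higher (2.40%). This was Psmb2, with 0, 8.10 and 21.7 CPM in C13 with TDP-43, 1.69, 14.2 and 0 CPM in C13 with sham, 31.8, 98.1 and 5.78 CPM in DMSO with TDP-43 and 47.8, 45.99 and 19.3 CPM in DMSO with sham and a log2 fold change of -2.49 (SE 1.13, edgeR unadjusted p = 0.0402, adjusted p = 0.822). Its fold is imprecise, since 2 of its nascent libraries, both with C13, held 0 reads. Leaving out each library in turn gave -3.73 to -1.86, with edgeR unadjusted p from 0.0106 to 0.141. Averaged over both drug arms, TDP-43 gave a median of -0.09 in total RNA, with 31 members lower and 13 higher beside a median of -0.01 over all genes, and -0.20 in nascent RNA, with 24 lower and 17 higher beside -0.02. Leaving out each library in turn, the median ran from -0.15 to -0.03 in total RNA and from -0.29 to -0.00 in nascent RNA, in both nearest to 0 without DMSO with sham replicate 2. The 1 member lower at an unadjusted p under 0.05 in total RNA (2.34% of all genes; 0 higher, 2.39%) was Psmd13, a 19S lid subunit. It had 385, 339 and 363 CPM in C13 with TDP-43, 299.5, 548 and 489.7 CPM in C13 with sham, 321, 262 and 312 CPM in DMSO with TDP-43 and 388, 399.8 and 388 CPM in DMSO with sham, and a log2 fold change of -0.35 (SE 0.15, edgeR unadjusted p = 0.0326, adjusted p = 0.948). In nascent RNA the 1 higher member was Psma7 (3.21% of all genes; 0 lower, 2.39%), at 1.33 (SE 0.44, edgeR unadjusted p = 0.00719, adjusted p = 0.832). Both Psma7 means with TDP-43, 447 ± 271 CPM under C13 and 420 ± 265 CPM under DMSO, stood above those with sham, 158 ± 2.61 CPM under C13 and 188 ± 84.5 CPM under DMSO (SD, n = 3 each). Without both libraries that stood apart nascent Psma7 averaged 1.05 (edgeR unadjusted p = 0.0255). Total Psma7 averaged -0.09 (SE 0.16).

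The interaction had an unadjusted p under 0.05 for 1 member in total RNA, Psmb7, on the positive side (4.94% of all genes; 0 negative, 3.02%), and for 2 in nascent RNA, both on the negative side (2.95% of all genes; 0 positive, 4.63%). These were Psmc1, at -2.38 (SE 0.97, edgeR unadjusted p = 0.0249, adjusted p = 0.602), and Psma1, at -2.66 (SE 1.26, edgeR unadjusted p = 0.0486, adjusted p = 0.654). Without both libraries that stood apart Psmc1 was at -1.34 (edgeR unadjusted p = 0.173). The median was 0.07 in total RNA beside 0.01 over all genes, and -0.26 in nascent RNA beside 0.09. Without C13 with sham replicate 2 the nascent median was 0.42, beside 0.35 over all genes. When nascent and other reads of each gene were put in 1 fit, to ask whether nascent RNA moved apart from the rest, 0 of 41 members were called in any of the 7 comparisons, and the smallest adjusted p of edgeR was 0.854. The background there was 0% of all genes, and 0.0141% for TDP-43 against sham averaged over both drug arms. At an unadjusted p under 0.05, C13 against DMSO with TDP-43 had Psma1 lower (1.58% of all genes), C13 against DMSO with sham had 0 members (1.17% higher and 4.03% lower), TDP-43 against sham with C13 had Psma6 and Psmd12 higher (3.53%), and TDP-43 against sham with DMSO had Psma7 higher (0.650%). C13 averaged had Psma1 and Psmd4 lower (2.85%), TDP-43 averaged had Psma7 and Psmd12 higher (1.88%) and Psmd14 lower (2.15%), and the interaction had Psma6 on the positive side (3.84%) and Psma1 and Psmd1 on the negative side (1.43%). DESeq2 was not run for this question.

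Among the other genes of the pathway, in lists of parts and partners, regulators of the Nfe2l1 route, ubiquitin genes and the immunoproteasome, 0 passed the adjusted p of edgeR in any comparison. Their unadjusted p was under 0.05 for 0 to 2 genes of a list in 1 direction of a comparison, where 1.23% to 5.19% of all genes were, and DESeq2 values were read for the 44 genes only. The list of parts and partners without a Psm symbol held 14 tested genes in total RNA, and its smallest p values belonged to Pomp, which guides the last step of core assembly. Total Pomp had 1014, 703 and 510.4 CPM in C13 with TDP-43, 610.0, 688 and 319 CPM in C13 with sham, 485, 298 and 332 CPM in DMSO with TDP-43 and 714, 856 and 526 CPM in DMSO with sham. As for Psmb7, C13 with TDP-43 and DMSO with sham had the highest means, and every library of C13 with TDP-43 lay above those of DMSO with TDP-43, which all lay below those of DMSO with sham. C13 against DMSO gave 1.00 with TDP-43 (SE 0.31, edgeR unadjusted p = 0.00594, adjusted p = 0.777), TDP-43 against sham gave -0.91 with DMSO (SE 0.31, edgeR unadjusted p = 0.0104, adjusted p = 0.999), and the interaction was 1.37 (SE 0.44, edgeR unadjusted p = 0.0069, adjusted p = 0.441). Nascent Pomp had 774, 563 and 565 CPM in C13 with TDP-43, 698, 646 and 1093 CPM in C13 with sham, 386, 270.2 and 370.0 CPM in DMSO with TDP-43 and 509, 699 and 466 CPM in DMSO with sham, so that in nascent RNA both C13 groups and DMSO with sham lay above DMSO with TDP-43, and the C13 groups overlapped.

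Of 13 tested regulators of the Nfe2l1 route, Nfe2l1 itself had 407, 502 and 414 CPM in C13 with TDP-43, 292, 192 and 301 CPM in C13 with sham, 526, 313 and 316 CPM in DMSO with TDP-43 and 338, 245 and 475 CPM in DMSO with sham in total RNA. Its libraries of C13 with TDP-43 lay above those of C13 with sham. The log2 fold change was 0.75 (SE 0.27, edgeR unadjusted p = 0.0143, adjusted p = 0.512). Nascent Nfe2l1 averaged 865 ± 654 CPM in C13 with TDP-43 and 847 ± 1026 CPM in C13 with sham (SD, n = 3 each). The core and 19S members had medians between -0.10 and 0.17 in that comparison in total RNA. A link between Nfe2l1 and the members was not tested. Bach1, a repressor at antioxidant response elements, had 12.8, 9.42 and 12.99 CPM in C13 with TDP-43, 11.5, 10.1 and 17.9 CPM in C13 with sham, 7.99, 8.75 and 7.64 CPM in DMSO with TDP-43 and 6.49, 5.01 and 5.69 CPM in DMSO with sham, and C13 against DMSO with sham gave 1.20 (SE 0.38, edgeR unadjusted p = 0.00647, adjusted p = 0.754). Uba6, a ubiquitin-activating enzyme, was lower in TDP-43 against sham with C13, at -0.70 (SE 0.25, edgeR unadjusted p = 0.0151, adjusted p = 0.513). The inducible subunits Psmb8, Psmb9 and Psmb10, which replace the catalytic ones in the immunoproteasome, were also measured. Total Psmb8 averaged 56.98 ± 12.1 CPM in C13 with TDP-43, 45.9 ± 4.79 CPM in C13 with sham, 45.2 ± 10.03 CPM in DMSO with TDP-43 and 51.9 ± 8.04 CPM in DMSO with sham (SD, n = 3 each). None of the 3 had an unadjusted p under 0.05 in any comparison, nascent or total.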

How the data were processed

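Total and nascent RNA were counted per gene in 12 libraries of 4 groups. The authors deposited whole-number read counts per gene, made from QuantSeq 3′ libraries on GRCm38, per the submitters' processing notes and the labels' protocols; the sources used here give no aligner, counter, annotation or base-change threshold. The counts as deposited hold 17436397 to 41779882 total and 552042 to 2722812 nascent reads per library. Of 30994 gene IDs, 30922 matched GENCODE vM21. Counts were filtered with filterByExpr, scaled by TMM and tested with edgeR 4.0.16 in R 4.3.3 (quasi-likelihood test, 1 fit of 4 group means per table, Benjamini-Hochberg over all genes, threshold 0.05). The step was tested on simulated data.

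Alternatives were DESeq2 1.42.0, its size factors, other filters, counts divided by a shared factor, library sizes of the total table, a replicate block and leaving out libraries. A further edgeR fit set nascent against other reads. Floors and counts cover counting error only. The members and lists were chosen with earlier results of these data known. Named were the catalytic subunits, activators and inhibitor, the highest and lowest member of each role, and the members with the smallest p in each direction of a comparison. Promoter sequences came from RefSeq (GRCm38.p6), transcripts from GENCODE. A gene of the pathway lists is not reported here.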

Additional observations from a re-analysis of the deposited data

Results flagged for a closer look

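Nascent Psmc1, an ATPase of the 19S base, pointed in opposite directions in the drug arms. Under C13 all 3 TDP-43 libraries lay below all 3 sham libraries, and under DMSO all 3 TDP-43 libraries lay above the sham libraries. The gap under DMSO was narrow: the lowest TDP-43 library was at 112.1 CPM and the highest sham library at 110.5 CPM. The difference between both effects, tested as an interaction by edgeR, was -2.38 on the log2 scale (SE 0.97, unadjusted p = 0.0249, adjusted p = 0.602). It was -1.34 without both libraries that stood apart (edgeR unadjusted p = 0.173). In total RNA the interaction was -0.54 (SE 0.30, edgeR unadjusted p = 0.0897, adjusted p = 0.692).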

How the results depend on the processing

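Over 20 other settings, 265 of 267 counts of called members stayed at 0, and 421 of 422 named fold changes kept their direction. The count moved to 1 for the interaction in total RNA, the gene being Psmb7, without a filter on low counts (124 of 18001 genes called) and under DESeq2 (108 of 11827). Nascent Psma7 in TDP-43 against sham with DMSO was -0.084 with the library sizes of the total table, where the median of all genes was -0.84, so the change of sign came with a shift of all genes. Those sizes moved the nascent medians to -0.95 for C13 against DMSO with sham (all genes -1.02), -0.89 for TDP-43 against sham with DMSO (-0.84), -0.58 for C13 averaged (-0.45) and 1.09 for the interaction (1.19). The cause of the other differences was not tested. Correlations of deviations between same-numbered libraries ran from -0.03 to 0.06 in nascent and from -0.02 to 0.11 in total RNA. They cannot show whether same-numbered libraries shared a culture or day, which the labels do not give. Replicate 3 had the lowest library nascent share in each group. It was 2.44% in C13 with TDP-43, 1.88% in C13 with sham, 2.13% in DMSO with TDP-43 and 2.74% in DMSO with sham. Total Psmb7 was also lowest in replicate 3 of each group. With the replicate number as a block, 0 members were called, and the Psmb7 interaction in total RNA was 1.51 (edgeR adjusted p = 0.112). Leaving out each library in turn gave it values from 1.34 to 1.79. With 3 libraries per group, and few nascent reads for many members, small changes could not be detected in nascent RNA.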
